A study of Mus musculus with 30 samples.

Results

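Retinas of mice that received either of 2 drug mixtures before bright light were compared with retinas of mice that received no bright light. The comparison used 9 of the 30 libraries of the series: 3 with the mixture BMT, 3 with the mixture MDB and 3 without bright light. The mean of the BMT and MDB groups was set against the no-light group, so each mixture had equal weight. The measurement was stranded poly(A) RNA sequencing of retinal RNA.

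All mice carried Abca4-/-Rdh8-/-, the no-light controls included, were male and female, and were 4 to 6 weeks old. Housing alternated 12 h of dim light (up to 10 lux) with 12 h of darkness. BMT contained bromocriptine (BRM), metoprolol (MTP) and tamsulosin (TAM). MDB contained metoprolol, doxazosin (DOX) and bromocriptine, so the mixtures differed in their alpha-1 blocker. They were injected intraperitoneally 30 min before white light of 10000 lux for 30 min, and retinas were taken 24 h after the light. The no-light group received DMSO, the solvent, and no bright exposure. A light group of 3 libraries received DMSO and the same light, and its values are given beside those of the mixtures. No group received a mixture without light, so what the drugs do by themselves and what remains of the light response cannot be told apart. Whether a library is 1 animal or a pool is not labelled, so p-values measure the spread between these libraries, which may be technical.

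ABCA4 and RDH8 clear all-trans-retinal, the spent chromophore, from photoreceptor outer segments. Without them bright light leaves a toxic load in rods and cones, and photoreceptor damage is followed by activation of Muller glia and microglia. Bromocriptine is a dopamine agonist that acts on D2-type receptors. Metoprolol is a beta-1 blocker, and both tamsulosin and doxazosin are alpha-1 blockers. The comparison asks how far the retina of a treated, illuminated mouse stands from that of a mouse that was never exposed.

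The total gene count was 19.9 to 25.8 M in the mixture libraries and 20.2 to 21.4 M in the no-light libraries. Transcripts of Abca4 and Rdh8 were counted in every library (578 to 919 CPM and 24.8 to 46.9 CPM in the 9 libraries), and since all groups carry the same alleles these levels do not check the group labels. CPM is the count per M counts of the library, after scaling by the trimmed mean of M values. Lens transcripts varied between libraries of 1 group: averaged as log2 CPM over 6 lens-fibre genes, among them Mip, Lim2, Bfsp1, Bfsp2 and Lgsn (called here the lens-fibre score), they were at 1.63, 8.08 and 1.51 in the no-light libraries, 2.96, 6.51 and -0.77 with BMT, and 6.74, 6.68 and 6.36 with MDB. No-light replicate 2, BMT replicate 2 and all 3 MDB libraries therefore stood above 4, while Rcvrn, a photoreceptor marker of retina, was at 1145 CPM or more in all 9.

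No gene passed the test between the pooled mixtures and no light. Of 16007 genes tested with edgeR's quasi-likelihood method, 0 had a Benjamini-Hochberg adjusted p under 0.05, which is 0% of those tested, and the smallest adjusted p was 0.898. At an unadjusted p under 0.05 there were 859 genes (5.37%), 468 higher (2.92%) and 391 lower (2.44%). The 6 mixture libraries lay wholly above the 3 no-light libraries for 157 genes (0.981%) and wholly below for 155 (0.968%). DESeq2 called 9 genes higher and 3 lower, and limma voom called 0.

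The precision of this result can be read from the intervals. The median absolute log2 difference was 0.09, and the median SE was 0.12. For 13158 genes, 82.2% of those tested, the 95% interval of the difference lay within 2-fold in either direction. For the other genes it reached beyond 2-fold on at least 1 side. Light without drug, in the same fit, was called for 1241 genes higher (7.75%) and 876 lower (5.47%) than no light. The pooled mixtures differed from the light group for 1075 genes higher (6.72%) and 1477 lower (9.23%).

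Each mixture was also set against no light by itself. For BMT 0 genes were called, with 1009 at an unadjusted p under 0.05 (6.3%) and a smallest adjusted p of 0.341. For MDB 0 genes were called, with 1642 at that level (10.3%) and a smallest adjusted p of 0.411. Between MDB and BMT 0 genes were called by edgeR, with 3001 genes at an unadjusted p under 0.05 (18.7%), and DESeq2 called 716. The pooled mean therefore averages over groups between which many genes had an unadjusted p under 0.05.

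Genes that respond to light were taken from the single-drug experiment, which shares no library with this comparison. There, 598 genes that were also tested here were called at least 2-fold higher with light and 341 at least 2-fold lower. Their median log2 difference from no light in the single-drug experiment was 1.65 and -1.27. The light group of the mixture experiment had medians of 1.5 and -0.73, and the pooled mixtures had 0.25 and -0.05. For the raised genes the median was 0.17 with BMT and 0.31 with MDB.

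Of the 598 raised genes 0 were called in the pooled comparison, 472 (78.9%) had a difference above 0, 75 (12.5%) were higher at an unadjusted p under 0.05 and 6 were lower. Over all genes 49.7% had a difference above 0 and 2.92% were higher at that level. Of the 341 lowered genes 12 (3.52%) were higher and 13 (3.81%) were lower, against 2.92% and 2.44% over all genes.

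A light score, the mean log2 CPM of the raised genes minus that of the lowered genes, was computed for each library. It was -3.67, -3.36 and -3.81 without light, -3.28, -3.05 and -3.84 with BMT, and -3.23, -3.26 and -3.27 with MDB. The light libraries had -1.04, -1.02 and -1.33. BMT replicate 3 lay below every no-light library, the other 5 mixture libraries lay above them all, and every mixture library was far from the light libraries. The pooled mixtures stood 0.29 above no light, and the light group stood 2.48 above it. Among the no-light libraries the highest score belonged to replicate 2, which also had the highest lens-fibre score. The part of lens RNA in this score was not tested.

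**Figure D1:**
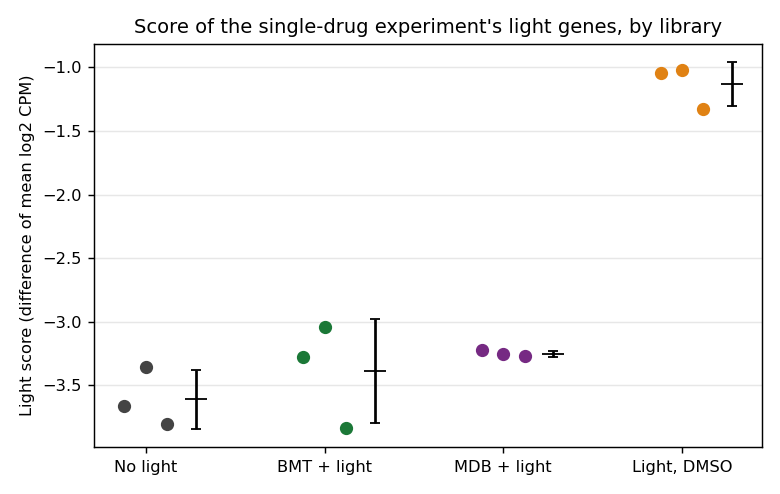
Light score (difference of mean log2 CPM between genes raised and genes lowered by light in the single-drug experiment) of each library in the no-light, BMT, MDB and light groups, with the mean and SD of 3 libraries beside the points. The 6 mixture libraries lie between -3.84 and -3.05, near the no-light libraries (-3.81 to -3.36) and away from the light libraries (-1.33 to -1.02).

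The genes with the smallest unadjusted p among those whose libraries did not overlap are described next. None of them passed the adjusted test, and all have an adjusted p of 0.898. Ahrr, the repressor of the aryl hydrocarbon receptor (GRCm38, chromosome 13, 74211118 to 74292331), had 21.8, 18.8 and 18 CPM without light, 30.7, 28.2 and 27.9 CPM with BMT and 24.7, 25.9 and 31.2 CPM with MDB. All 6 mixture libraries were above the 3 no-light libraries, and the light libraries were higher still, at 42.0 to 43.5 CPM. The pooled log2 difference from no light was 0.53 (SE 0.09, 95% interval 0.33 to 0.72, unadjusted p = 9.93e-05).

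Trpm1, the cation channel that carries the light response of ON bipolar cells (chromosome 7, 64153835 to 64269775), had 96.2, 106 and 93.4 CPM without light. It had 152, 183 and 117 CPM with BMT and 149, 128 and 155 CPM with MDB. The groups did not overlap, and the light libraries, at 180 to 185 CPM, were above 5 of the 6 mixture libraries. The pooled log2 difference was 0.58 (SE 0.12, interval 0.32 to 0.84, unadjusted p = 0.000405).

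Bst1, an ectoenzyme that hydrolyses NAD, had 11.8, 9.59 and 10.5 CPM without light, 16.6, 19.3 and 22.9 CPM with BMT and 22.4, 15.6 and 14.6 CPM with MDB. Its log2 difference was 0.80 (SE 0.17, interval 0.42 to 1.18). Btc, which encodes the growth factor betacellulin, had 12.4 to 14.9 CPM without light, 17.7 to 23.2 with BMT, 16.9 to 20.8 with MDB and 54.9 to 61.1 with light. Its mixture libraries were thus above the no-light libraries and far below the light libraries. The log2 difference was 0.45 from no light (interval 0.22 to 0.69) and -1.60 from the light group (adjusted p = 3.71e-06, edgeR).

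The other genes of the kind had log2 differences of 0.31 for Rps3a1 to 0.87 for Dnase2a, a lysosomal nuclease, with 0.35 for Mpp7 and 0.37 for Rps27l between them. Hist1h2be, a replication-type histone gene, was at 17.1 to 18.3 CPM without light, 21.7 to 26.2 CPM with the mixtures and 10.8 to 14.3 CPM with light. Its light libraries were the lowest of the 12. Rps3a1 and Hist1h2be have near-identical copies in the genome, so their counts are uncertain.

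In the other direction, Ptprb, the receptor tyrosine phosphatase of vascular endothelium (chromosome 10, 116301374 to 116389538), had 11.3, 12.5 and 11.0 CPM without light, 9.94, 8.78 and 7.51 CPM with BMT and 6.88, 7.33 and 6.79 CPM with MDB. Its light libraries, at 10.9 to 14.0 CPM, overlapped the no-light libraries. The log2 difference was -0.57 from no light (SE 0.11, interval -0.81 to -0.32) and -0.69 from the light group (adjusted p = 0.00135, edgeR). Eltd1, an adhesion G protein-coupled receptor of endothelium, had 7.06, 6.52 and 4.47 CPM without light and 2.41 to 3.70 CPM with the mixtures. Its log2 difference was -0.82 (interval -1.20 to -0.43).

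The remaining named genes below no light were Arl2bp at -0.19, Pgd at -0.23, Ift27 at -0.30, 2610005L07Rik at -0.48 and Prox2 at -0.60 on the log2 scale. Arl2bp and Ift27 encode ciliary proteins, and Pgd an enzyme of the pentose phosphate pathway. 2610005L07Rik is annotated as a pseudogene, so its counts are uncertain. DESeq2 called Ahrr, Trpm1, Mpp7, Bst1, Ptprb and 2610005L07Rik among its 12 genes, with adjusted p of 0.00123 to 0.0414.

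**Figure D2:**
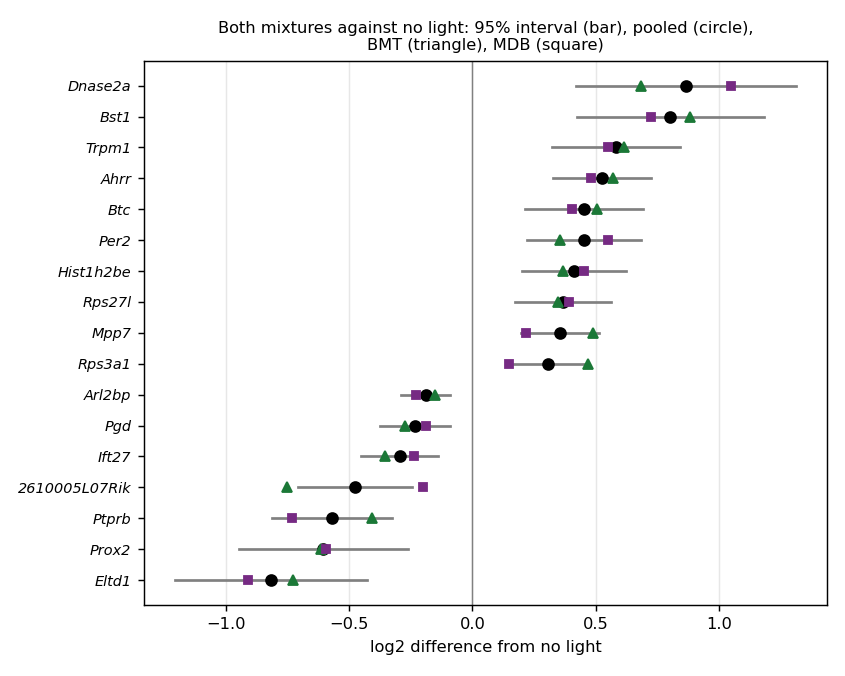
log2 difference from no light for the named genes whose mixture and no-light libraries did not overlap: circle, both mixtures pooled, bar, its 95% interval, triangle, BMT, square, MDB. Pooled values run from -0.82 (Eltd1) to 0.87 (Dnase2a), and none passed the adjusted test.

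Rod and cone genes were near the no-light level, most of them slightly below it. Of 30 rod phototransduction and outer segment genes 0 were called. At an unadjusted p under 0.05, 0 were higher and 1 was lower, against 2.92% and 2.44% over all genes. A difference below 0 was found for 25 of the 30, while 49.7% of all genes were above 0. All 30 rod genes had an interval within 2-fold. Their median log2 difference was -0.07, made up of 0.02 with BMT and -0.20 with MDB, against -0.80 with light. Over all genes the median was -0.001. With 1 library left out the median ran from -0.15 (no-light replicate 2) to -0.02 (BMT replicate 2) and the lower count from 0 to 3. Over all genes the count in either direction then ran from 509 of 16334 to 2105 of 16328. Without BMT replicate 2 or no-light replicate 3, 11 of the 30 rod genes were above 0. Compared with the light group 27 of the 30 were called higher, against 6.72% over all genes.

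Rcvrn, the calcium sensor recoverin, was the rod gene with an unadjusted p under 0.05, at a log2 difference of -0.24 (interval -0.43 to -0.05). It had 1261 to 1614 CPM without light and 1145 to 1440 CPM with the mixtures.

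Of 17 cone genes 0 had an unadjusted p under 0.05, against 5.37% over all genes, so 0 of so few says little. Their median was -0.03, and 11 of the 17 were below 0. Opn1sw, the short-wavelength cone opsin, had 689, 671 and 703 CPM without light, 706, 516 and 854 CPM with BMT and 493, 634 and 547 CPM with MDB. The BMT libraries lay on both sides of the no-light libraries and the MDB libraries below them, while light left 141 to 280 CPM. Its log2 difference was -0.15 (interval -0.57 to 0.28). For Opn1mw, the middle-wavelength opsin, the difference was 0.04 (interval -0.16 to 0.24), with 0.26 for BMT and -0.17 for MDB.

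The transcription factors of photoreceptors were 0 of 14 called, with a median of -0.06, and 10 of the 14 were below 0. Nr2e3, which represses cone genes in rods, had 620, 510 and 686 CPM without light, 494, 454 and 564 CPM with BMT and 467, 509 and 546 CPM with MDB. The groups overlapped, and the difference was -0.26 (interval -0.50 to -0.02, unadjusted p = 0.0365). For Nrl, which sets rod fate, the difference was -0.12 (interval -0.41 to 0.17). Of 19 retinoid genes 0 were called and 13 were above 0, with a median of 0.06, which was -0.06 without no-light replicate 2. At an unadjusted p under 0.05, 0 were higher and 1 was lower, against 2.92% and 2.44% over all genes. The knocked-out Rdh8 had -0.37 (interval -0.64 to -0.11), and Abca4 had 0.14 (interval -0.08 to 0.36).

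Muller glia support photoreceptors and recycle glutamate through glutamine synthetase, encoded by Glul. Of 24 Muller glia homeostasis genes 0 were called and 20 had a difference above 0, against 49.7% over all genes. Their median was 0.18, with 0.01 for BMT, 0.31 for MDB and 0.10 for light. With 1 library left out the pooled median ran from 0.06 (BMT replicate 2) to 0.27 (no-light replicate 2). Glul had 1129, 1486 and 1206 CPM without light, 1346, 1368 and 1050 CPM with BMT and 1377, 1323 and 1305 CPM with MDB. These 3 groups overlapped, whereas the light libraries had 313 to 370 CPM. The log2 difference from no light was 0.02 (interval -0.21 to 0.26), and that from the light group was 1.89 (adjusted p = 3.71e-06, edgeR). Glb1l3, a galactosidase-like gene, had 8.50 to 11.5 CPM without light, 12.2 to 17.8 with BMT, 10.7 to 17.1 with MDB and 1.49 to 2.21 with light. Its difference from no light was 0.48 (interval 0.07 to 0.90), with overlapping libraries.

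Genes of reactive gliosis had the largest median of the retinal lists described here, though no member passed the test. Of 23 genes tested 0 were called, 5 were higher at an unadjusted p under 0.05 and 0 lower, against 2.92% and 2.44% over all genes. All 23 had a difference above 0, the median was 0.58 (0.51 with BMT and 0.71 with MDB), and the light median was 2.80. Leaving out no-light replicate 2 moved the pooled median to 1.20 and the count to 13, and leaving out no-light replicate 3 moved the count to 2. It was 3 without no-light replicate 1, BMT replicate 1 or MDB replicate 3, 8 without MDB replicate 1 and 9 without BMT replicate 3. Over all genes, in either direction, the count was 859 of 16007, and 2105 of 16328 without no-light replicate 2. It was 509 of 16334 without no-light replicate 3 and 1147 of 16323 without BMT replicate 3, so these counts shift over all genes too. Only 6 of the 23 had an interval within 2-fold.

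Gfap, the glial intermediate filament, had 18, 43.9 and 22.7 CPM without light, 81.3, 57.8 and 28.6 CPM with BMT and 28.6, 41.9 and 52.9 CPM with MDB. No-light replicate 2 lay inside the range of the mixtures, and the light libraries had 261 to 340 CPM. The log2 difference was 0.77 (SE 0.34, interval 0.01 to 1.52, adjusted p = 0.898). Cebpd, an acute-phase transcription factor whose transcript the deposited annotation types as a pseudogene, so that its counts are uncertain, was the gliosis gene without overlap: 1.52, 1.53 and 0.67 CPM without light, 5.86, 3.31 and 1.60 with BMT and 2.21, 3.69 and 7.27 with MDB. Its difference was 1.69 (interval 0.65 to 2.73), against 5.17 for light.

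Nes, which encodes nestin, had 2.28 to 3.11 CPM without light, 3.04 to 7.35 with BMT and 3.84 to 4.66 with MDB, a difference of 0.86 (interval 0.35 to 1.38). Lcn2, an acute-phase protein that binds siderophores, had a difference of 0.88 (interval 0.22 to 1.54). Serpina3n, a protease inhibitor, had 3.20, 10.9 and 2.33 CPM without light, 20.4, 39.0 and 2.98 with BMT and 6.28, 13.3 and 14.9 with MDB. BMT replicate 3 and MDB replicate 1 stood within the no-light range, BMT replicate 2 was the highest, and the difference was 1.51 with an interval of -0.03 to 3.04.

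Signals upstream of gliosis were as variable. Edn2, a stress signal of photoreceptors, had 1.57, 2.97 and 1.76 CPM without light, 5.08, 3.43 and 1.1 with BMT and 0.97, 3.69 and 10.2 with MDB. The replicates of each mixture differed more than the groups did, and the interval ran from -0.42 to 2.28. Stat3, the transducer of gp130 cytokines, had a difference of 0.42 (interval -0.07 to 0.91). Of 19 gp130 and JAK-STAT genes 1 was higher at an unadjusted p under 0.05, against 2.92% over all genes. This was the receptor chain Il6st at 0.28 (interval 0.04 to 0.52). That count ran from 0 without no-light replicate 1 to 5 without no-light replicate 2. Over all genes, in either direction, 977 of 16324 and 2105 of 16328 reached that level in these fits. Prss56, a secreted serine protease, had 1.29 to 4.62 CPM without light, 1.16 to 4.63 with the mixtures and 119 to 207 with light. Its difference from no light was -0.38 (interval -1.40 to 0.64), and that from the light group was -6.12 (adjusted p = 3.71e-06, edgeR).

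**Figure D3:**
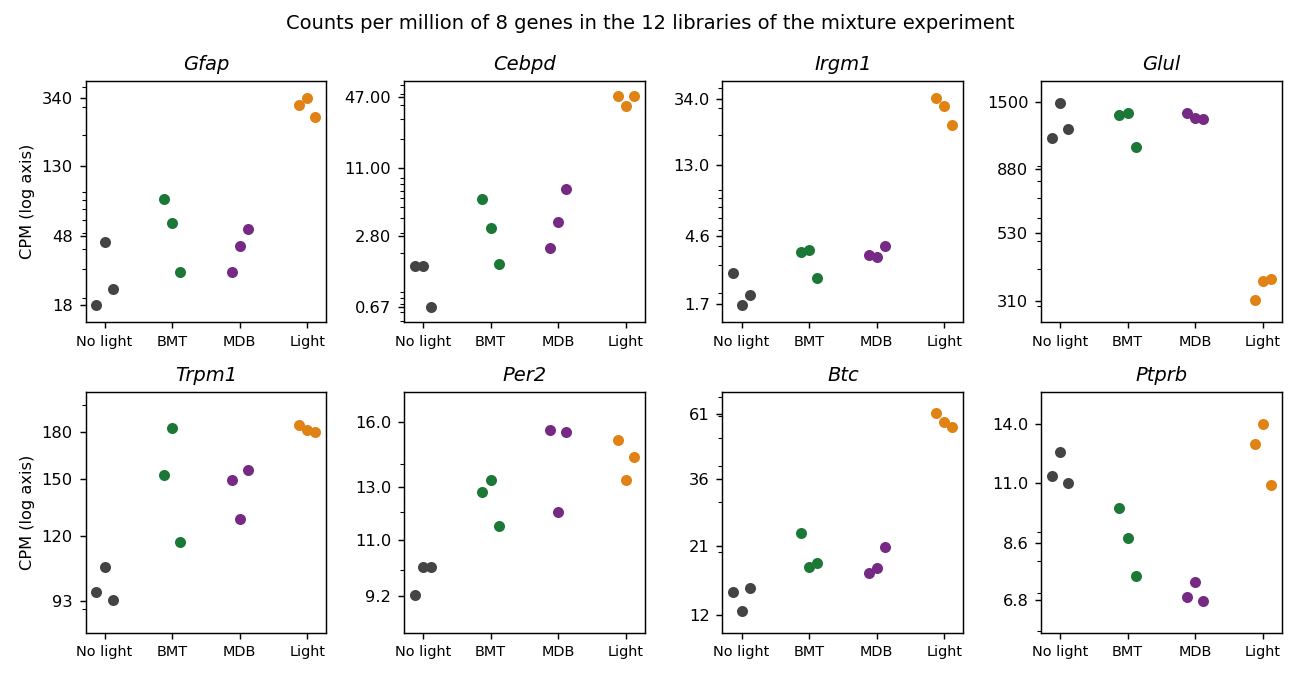
CPM (log axis) of Gfap, Cebpd, Irgm1, Glul, Trpm1, Per2, Btc and Ptprb in each library of the no-light, BMT, MDB and light groups, 3 points a group. Gfap, Cebpd, Irgm1 and Btc are highest with light, and for Cebpd and Btc all 6 mixture libraries lie between the no-light and the light libraries. Glul is lowest with light, and Ptprb has all 6 mixture libraries below the no-light libraries.

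Interferon-response and antigen-presentation genes were mostly above 0 as well. Of 30 genes tested 0 were called. At an unadjusted p under 0.05, 8 were higher and 0 lower, against 2.92% and 2.44% over all genes. A difference above 0 was found for 28, against 49.7% over all genes, and the median was 0.44. The median was 0.21 with BMT, 0.66 with MDB and 2.72 with light. Compared with the light group 28 of the 30 were called lower, against 9.23% over all genes. The count at an unadjusted p was 14 without no-light replicate 2, 5 without no-light replicate 1 and 2 without no-light replicate 3. Over all genes, in either direction, it was 2105 of 16328, 977 of 16324 and 509 of 16334 in those fits.

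Irgm1, an interferon-induced GTPase, had 2.69, 1.68 and 1.95 CPM without light, 3.63, 3.74 and 2.49 with BMT and 3.51, 3.38 and 3.98 with MDB. BMT replicate 3 lay below no-light replicate 1 and the other 5 mixture libraries lay above all no-light libraries. The difference was 0.72 (interval 0.28 to 1.15). Igtp, another GTPase of this family, had 0.89 to 1.17 CPM without light and 1.27 to 2.05 with the mixtures, with no overlap and a difference of 0.73 (interval 0.17 to 1.28). H2-K1, an MHC class I heavy chain, had 7.26, 10.1 and 5.66 CPM without light, 7.81, 10.1 and 7.46 with BMT and 16.8, 11.7 and 15.7 with MDB. Its difference came mainly from MDB, with 0.94 for MDB and 0.15 for BMT, and the test between the mixtures gave an adjusted p of 0.185. MHC class I genes are near-identical copies, so their counts are uncertain.

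Complement genes had 5 of 15 higher at an unadjusted p under 0.05 and 0 lower, against 2.92% and 2.44% over all genes, with 0 called and a median of 0.56. The count was 2 without no-light replicate 1, 3 without no-light replicate 3, BMT replicate 1 or BMT replicate 2, and 8 without no-light replicate 2 or BMT replicate 3. Over all genes, in either direction, it was 977 of 16324 without no-light replicate 1 and 2105 of 16328 without no-light replicate 2. It was 509 of 16334 without no-light replicate 3 and 1147 of 16323 without BMT replicate 3. Cfi, complement factor I, had 0.15, 0.15 and 0.10 CPM without light, 0.68, 0.47 and 0.22 with BMT and 1.25, 0.51 and 0.58 with MDB. The groups did not overlap, and the difference was 2.15 (interval 1.07 to 3.23, unadjusted p = 0.00102). C1rl, a serine protease related to C1r, was at 0.14 to 0.36 CPM without light and 0.36 to 1.1 with the mixtures, a difference of 1.44 (interval 0.50 to 2.37). Without light Cfi and C1rl had only a few counts per library, so their folds and the separation of their libraries are uncertain. C1qa, a C1q chain made by microglia, had a difference of 0.53 (interval 0.10 to 0.96), and C4b, also counted in the gliosis list, had 1.16 (interval 0.11 to 2.21). Of 22 microglial genes 1 was higher at an unadjusted p under 0.05, against 2.92% over all genes, and this was C1qa. That count ran from 0 without no-light replicate 1 or 3 to 5 without no-light replicate 2.

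Of 12 chemokine, cytokine and leukocyte adhesion genes tested 0 were called, 7 were above 0 and 5 below. At an unadjusted p under 0.05, 2 were higher and 1 was lower, against 2.92% and 2.44% over all genes. The chemokine Ccl2 was counted at 0, 0.05 and 0 CPM without light, 0.09, 0.04 and 0 with BMT and 0.23, 0.15 and 0.14 with MDB, against 1.75 to 4.04 with light. These Ccl2 levels are a few counts per library, so no fold is given. Fosl1, a member of AP-1, was at 0 CPM in the 3 no-light libraries, 0 to 0.32 with BMT, 0.05 to 0.19 with MDB and 3.43 to 4.92 with light. Fos had 7.76 to 16.2 CPM without light and 7.46 to 16.0 with the mixtures, a difference of -0.03 (interval -0.54 to 0.48). The zinc-binding metallothionein Mt1 had 26.8, 38.0 and 40.1 CPM without light, 55.7, 41.4 and 32.6 with BMT and 61.0, 55.6 and 52.3 with MDB. Its difference was 0.50 (interval 0.12 to 0.87), and BMT replicate 3 lay within the no-light range.

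**Figure D4:**
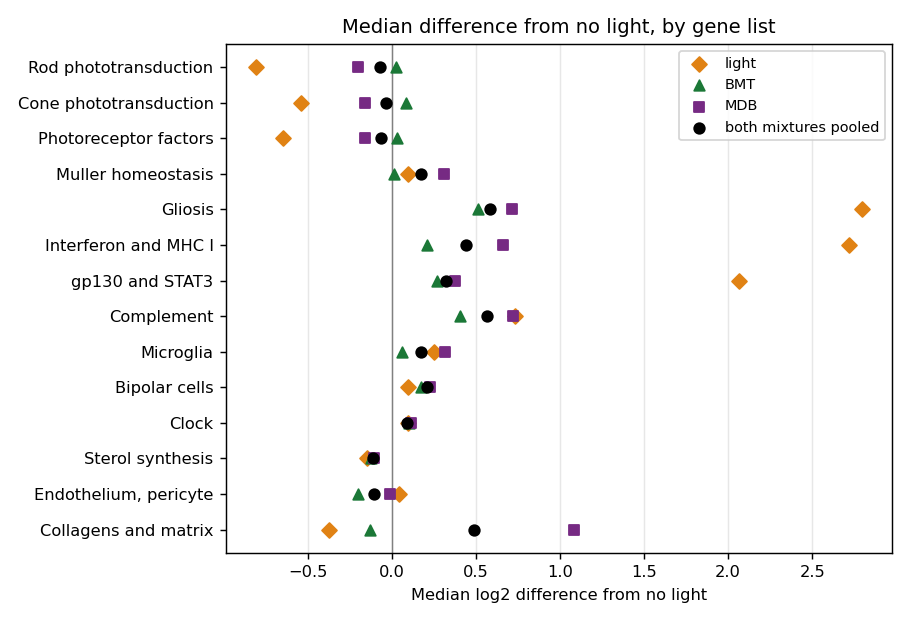
Median log2 difference from no light of 14 gene lists for both mixtures pooled (circle), BMT (triangle), MDB (square) and light without drug (diamond). The pooled medians of rod and cone genes are near 0, those of gliosis, interferon and complement genes are 0.44 to 0.58, and the light medians of gliosis and interferon genes are 2.80 and 2.72.

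Genes of bipolar cells, which relay photoreceptor signals, had medians above 0 with both mixtures. Of 13 genes 0 were called, 5 were higher at an unadjusted p under 0.05 and 0 lower, 12 were above 0, and the median was 0.21, with 0.18 for BMT, 0.23 for MDB and 0.10 for light. Over all genes 2.92% were higher and 2.44% lower at that level. The count was 3 without BMT replicate 1, no-light replicate 2 or 3, or MDB replicate 1 or 3, and 8 without MDB replicate 2. Without no-light replicate 2, 9 of the 13 were above 0. Beside Trpm1, Grm6, the glutamate receptor of ON bipolar cells, had 39.1, 44.0 and 41.7 CPM without light, 51.9, 44.2 and 44.9 with BMT and 57.4, 46.5 and 68.6 with MDB. The groups did not overlap, the closest libraries being 44.0 and 44.2 CPM, and the difference was 0.32 (interval 0.09 to 0.55). Nyx, which anchors Trpm1, had 0.32 (interval 0.04 to 0.59), and Isl1, a homeodomain factor, had 0.21 (interval 0.04 to 0.38) with no overlap. In bulk tissue a change in the share of cells of a type and a change in RNA per cell cannot be told apart.

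Clock genes are driven by CLOCK and BMAL1 at E-boxes and by PAR bZIP factors at D-boxes. The promoter windows of Ciart, Bhlhe41 and Per3 are shown because these members had an unadjusted p under 0.05 and hold one of the searched motifs. Each runs from 250 bases before to 50 after the start of transcription on the gene's strand, from RefSeq on GRCm38.p6, with matches in capitals. Of the 21 clock genes 18 matched the table. E-box matches are CACGTG, which reads the same on both strands, and D-box matches are TTATGTAA, its other strand TTACATAA, and TTACGTAA.
Ciart (chr3:95882179-95882478, minus strand, 3 E-boxes): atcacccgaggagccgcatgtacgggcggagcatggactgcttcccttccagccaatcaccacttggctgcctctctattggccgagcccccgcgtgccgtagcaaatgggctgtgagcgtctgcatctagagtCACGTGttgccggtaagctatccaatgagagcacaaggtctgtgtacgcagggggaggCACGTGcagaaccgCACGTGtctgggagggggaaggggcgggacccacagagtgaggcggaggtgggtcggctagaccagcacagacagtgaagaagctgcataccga
Bhlhe41 (chr6:145865371-145865670, minus strand, 1 E-box): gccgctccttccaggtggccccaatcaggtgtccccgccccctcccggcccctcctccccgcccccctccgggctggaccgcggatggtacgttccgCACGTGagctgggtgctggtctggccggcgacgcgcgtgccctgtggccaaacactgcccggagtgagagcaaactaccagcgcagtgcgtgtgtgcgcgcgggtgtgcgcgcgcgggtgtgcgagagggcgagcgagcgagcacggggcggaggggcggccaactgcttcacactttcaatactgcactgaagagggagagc
Per3 (chr4:151044616-151044915, minus strand, 2 D-boxes): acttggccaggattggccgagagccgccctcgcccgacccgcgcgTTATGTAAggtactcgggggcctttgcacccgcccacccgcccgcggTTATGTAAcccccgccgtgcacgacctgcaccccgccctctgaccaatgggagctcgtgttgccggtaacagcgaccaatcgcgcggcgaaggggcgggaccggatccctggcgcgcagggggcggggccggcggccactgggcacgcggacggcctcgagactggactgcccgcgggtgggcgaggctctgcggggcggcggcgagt

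Of 32851 such promoter windows 7.15% hold the E-box and 1.06% hold a D-box form. The 18 clock genes have 27 windows, of which 6 hold the E-box and 1 holds a D-box form. Counted per gene, 5 of the 18 have a window with an E-box and 1 has one with a D-box. A match describes the letters only.

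Of 21 clock genes tested 0 were called, 5 were higher at an unadjusted p under 0.05 and 1 was lower, against 2.92% and 2.44% over all genes. Without MDB replicate 3 the higher count was 3. The lower count was 1 without BMT replicate 3 or no-light replicate 2 and was 0 without any other library. Per2, a repressor of the clock (chromosome 1, 91415982 to 91459324), had 9.24, 10.1 and 10.1 CPM without light, 12.8, 13.3 and 11.5 with BMT and 15.6, 12.0 and 15.5 with MDB. The groups did not overlap, the light libraries had 13.3 to 15.1 CPM, and the difference was 0.45 (SE 0.10, interval 0.22 to 0.68, unadjusted p = 0.00113). Per3 had 41.4 to 45.2 CPM without light, 45.9 to 50 with BMT and 58.0 to 62.3 with MDB, a difference of 0.32 (interval 0.11 to 0.54). Ciart, another repressor, had 4.32 to 5.52 CPM without light and 5.80 to 7.60 with the mixtures, a difference of 0.35 (interval 0.03 to 0.68). The PAR bZIP factor Dbp had 0.34 (interval 0.11 to 0.57), Bhlhe41 had 0.20 (interval 0.02 to 0.37), and Arntl, which encodes BMAL1, had -0.16 (interval -0.32 to -0.002). The time of day at collection is not given in the sources used here, so its part in these values was not tested.

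Sterol and fatty acid synthesis genes were slightly below no light. Of 29 genes 0 were called, 6 were lower at an unadjusted p under 0.05 and 0 higher, against 2.44% and 2.92% over all genes. A difference below 0 was found for 28 of the 29, the median was -0.11, and all 29 intervals lay within 2-fold. The light median was -0.15, and the median difference of the pooled mixtures from the light group was -0.02. Without no-light replicate 2 the pooled median from no light was -0.07 and 10 of the 29 were above 0. Without no-light replicate 3 the count of 6 became 3. Dhcr7, which makes cholesterol from its last precursor, had 32.2, 34.9 and 35.4 CPM without light, 27.5, 27.2 and 29.5 with BMT and 31.5, 30.8 and 29.6 with MDB. All 6 mixture libraries were lower, and the difference was -0.22 (interval -0.37 to -0.07). Hmgcs1, which makes HMG-CoA, had -0.21 (interval -0.38 to -0.05). Acly, which supplies acetyl-CoA, had -0.14 (interval -0.26 to -0.03), also with no overlap.

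Of 21 endothelial and pericyte genes 5 were lower at an unadjusted p under 0.05 and 1 was higher, against 2.44% and 2.92% over all genes, with 0 called and a median of -0.11. The lower count was 2 without no-light replicate 1 or 3 and 3 without no-light replicate 2, and the higher count ran from 0 to 3 over the libraries left out. The median was -0.17 to -0.20 without BMT replicate 2, MDB replicate 1 or no-light replicate 1 or 2, and -0.04 and -0.06 without BMT replicate 3 and no-light replicate 3. Pecam1, an endothelial adhesion molecule, had 4.57, 4.60 and 5.28 CPM without light, 4.13, 3.94 and 3.54 with BMT and 4.01, 3.64 and 3.34 with MDB. The groups did not overlap, and the difference was -0.35 (interval -0.63 to -0.08). Cdh5, the cadherin of endothelial junctions, had -0.65 (interval -1.20 to -0.09) with no overlap, and the angiopoietin receptor Tek had -0.57 (interval -1.04 to -0.10). Abcc9 and Rgs5, markers of pericytes, had -0.71 and -0.31. The value of Abcc9 was the lowest of the list, and Rgs5 was picked after its value was seen. Other members, such as Pdgfrb, Kcnj8 and Cspg4, are not described, so Abcc9 and Rgs5 do not stand for pericytes as a whole. Of the 21 genes 15 were below 0 and 6 above, while 49.7% of all genes were above 0. The member that was higher, Myh11 of smooth muscle, had 2.25 with an interval of 0.12 to 4.37.

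Genes of dopamine signalling include the receptors that bromocriptine addresses. Of 12 dopamine genes 1 was lower at an unadjusted p under 0.05, against 2.44% over all genes. This was the synthesis enzyme Ddc, at -0.83 (interval -1.60 to -0.05). Drd2 had 7.77 to 9.89 CPM without light and 6.92 to 9.36 with the mixtures, a difference of -0.04 (interval -0.33 to 0.25). Drd4, the D2-type receptor of photoreceptors, had 41.2, 63.2 and 64.0 CPM without light, 43.5, 36.8 and 35.5 with BMT and 80.5, 53.8 and 102 with MDB. Its pooled difference of -0.03 (interval -0.46 to 0.41) averaged -0.54 for BMT and 0.49 for MDB. MDB libraries were all above BMT libraries, with a difference of 1.03 that did not pass the adjusted test (adjusted p = 0.185, edgeR).

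Of 8 adrenergic receptor genes 0 had an unadjusted p under 0.05, against 5.37% over all genes, so 0 of so few says little. The beta-1 receptor Adrb1 had 13.5 to 15.5 CPM without light, 11.9 to 14.9 with BMT and 12.9 to 16.1 with MDB, a difference of -0.05 (interval -0.30 to 0.19). Among the alpha-1 receptors, Adra1a had 0.73 (interval -0.01 to 1.48), Adra1b had -0.33 (interval -0.89 to 0.22) and Adra1d had 0.10 (interval -0.47 to 0.66). Adra1a was low, at 0.51 to 0.89 CPM without light and 0.66 to 1.73 with the mixtures.

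Collagen and matrix genes set the mixtures apart more than any retinal list described here. Their pooled median was 0.49, from -0.13 for BMT and 1.08 for MDB. Of the 28 genes 0 were called and 1 was higher at an unadjusted p under 0.05, against 2.92% over all genes. The summed level was 335, 1594 and 360 CPM without light, 368, 1330 and 282 CPM with BMT and 2034, 1447 and 1656 CPM with MDB. Among these 9 libraries the high ones were those with a lens-fibre score above 4. Crystallin genes summed to 1420 to 53580 CPM without light, 225 to 29740 with BMT and 29080 to 40210 with MDB, in the same libraries. Light replicate 3 also had a score above 4, at 5.16, but its matrix genes summed to 618 CPM. Without no-light replicate 2 the matrix median was 1.03 and 19 genes had an unadjusted p under 0.05. Over all genes 2105 of 16328 had such a p in that fit, against 859 of 16007 with all libraries. The median was 0.10 without BMT replicate 2 and 0.21 without no-light replicate 1 or 3. The part of lens and matrix RNA in the pooled comparison was not tested beyond a fit with the lens-fibre score as a covariate, which called 0 genes and had 990 at an unadjusted p under 0.05.

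**Figure D5:**
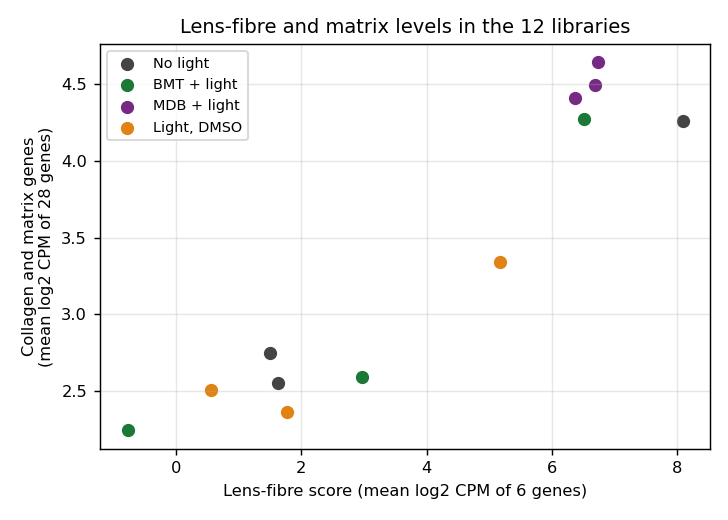
Mean log2 CPM of 28 collagen and matrix genes against the lens-fibre score (mean log2 CPM of 6 genes) in the 12 libraries of the mixture experiment, by group. All MDB libraries, no-light replicate 2 and BMT replicate 2 lie at a lens-fibre score above 6, with matrix levels above 4. Light replicate 3 lies at a lens-fibre score of 5.16, with a matrix level of 3.34.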

How the data were processed

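RNA of the retina was measured in 30 libraries, of which the 12 of the mixture experiment were fitted here and the 18 of the single-drug experiment gave the light-responsive genes. The labels report the experiments as separate. Per the submitters' processing notes, Trimmomatic, Bowtie2, TopHat2 and eXpress were used with GRCm38.p3, and edgeR and limma are named too. For none of these is a version stated in the labels. As deposited, the counts are eXpress expected counts of 102906 transcripts without normalization. They were summed over 42439 gene identifiers and rounded. The FPKM values, deposited by the authors after TMM scaling, served as an alternative only (limma on log2 of FPKM plus 1 or 0.1). The authors' tables of changed transcripts and the FPKM written by eXpress were not used.

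All 4 groups of the mixture experiment were fitted with edgeR 4.0.16 (R 4.3.3), TMM and filterByExpr, and the mean of the mixture groups was set against no light, two-sided. Called means a Benjamini-Hochberg adjusted p under 0.05 over all genes. The SE is the absolute log2 difference over the square root of F, and intervals are at 95%. Log2 CPM used a prior count of 1. The fit was tested on simulated data. Alternatives were RLE factors, no filter, DESeq2 1.42.0, limma 3.58.1 voom, a replicate block, only the groups compared, FPKM, a lens-fibre covariate, all 6 mixture libraries as 1 group, and each library left out.

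Members, the 44 gene lists and tests were chosen with earlier results of these data known, so no list is independent evidence. Named genes were the 10 called in each direction with the largest difference, if their libraries did not overlap and their mean log2 CPM reached 1. Since none was called, they are the 10 next in unadjusted p with the same level and no overlap. Some genes picked by this rule are not reported. Gm10557 and Gm21092, a pseudogene and an unnamed gene model, are not described further. Up to 4 members of each list described, and 21 genes fixed by name, were added. Lists to describe, and other members named beside them (such as Rgs5, Myh11, Ciart, Arntl and Fos), were chosen after their values were seen. Depth limits single genes, and intervals cover the spread between libraries.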

Additional observations from a re-analysis of the deposited data

How the results depend on the processing

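The count of called genes was 0 under most alternatives. For the pooled mixtures against no light DESeq2 called 12 and FPKM with a pseudocount of 0.1 called 1 transcript, and each library left out in turn gave 0. BMT against no light had 13 with DESeq2, 1 with FPKM at a pseudocount of 0.1, and 0 to 1 with a library left out (1 without no-light replicate 2). MDB against no light had 23 with DESeq2, 3 with FPKM, 7 at a pseudocount of 0.1, and 0 with any library left out. MDB against BMT had 716 with DESeq2, 2 with FPKM, 3 at a pseudocount of 0.1, and 0 with any library left out. The cause was not tested. Pooled genes at an unadjusted p under 0.05 numbered 2105 without no-light replicate 2 and 509 without no-light replicate 3, against 859. For BMT they numbered 618 with only the groups compared, 2103 without no-light replicate 1 and 558 without no-light replicate 3. For MDB they numbered 3641 without no-light replicate 2, and 934 to 1044 without no-light replicates 1 or 3 or MDB replicate 1. MDB against BMT had 1517 with the lens-fibre covariate, and 1747, 1848 and 1987 without BMT replicate 3, MDB replicate 1 and MDB replicate 3. Keeping only libraries with a lens-fibre score under 4 leaves no MDB library, so it was run for BMT alone, after seeing the data, with 0 called.

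The light score difference was 0.19 to 0.42 with each library left out, and 0.14 over all genes called with light in the single-drug experiment. The sign turned for some named genes. With a library left out, the log2 difference ran from -0.055 to 0.139 for Glul, -0.051 to 0.089 for Opn1mw, -0.109 to 0.059 for Drd2, -0.206 to 0.080 for Drd4, -0.760 to 0.003 for Prss56, -0.112 to 0.233 for Adra1d and -3.079 to 0.628 for Cxcl10. Glul was -0.023 with the lens-fibre covariate and Drd4 was 0.063 with the mixtures as 1 group. Replicate numbers did not pair the libraries across all groups: correlations of same-numbered deviations ranged from -0.31 to 0.75. Between no-light and BMT they were 0.028, 0.751 and 0.513 for replicates 1, 2 and 3, and replicates 2 and 3 matched their own number best. Between no-light and MDB they were -0.165, -0.234 and 0.062. The replicate block gave 0 called genes in all 4 comparisons, with 880 at an unadjusted p under 0.05 in the pooled one.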
